A study of Mus musculus with 8 samples.

Results

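The metallothionein and zinc transport genes described here are Mt1, Mt2, Mtf1, Slc30a1, Slc30a4, Slc39a1, Slc39a8 and Slc39a14, which were chosen as 8 named genes among the 37018 genes and transcripts on the array. Each gene was represented by its brightest probe over all arrays, and all 8 passed the filter on low values, as did 36947 of the 37018 in the fit of KO/WT ratios. RNA came from peritoneal macrophages of C57BL/6 background mice that were lavaged from the peritoneal cavity with buffered saline, cultured, and freed of non-adherent cells by washing. The KO mice were LysMCre-fur(fl/fl), in which a Cre recombinase driven by the lysozyme M (Lyz2) promoter of myeloid cells deletes floxed Furin alleles, and the WT mice were littermates. The sources used here do not say whether the littermates carried the Cre or floxed alleles, how many mice gave each sample, or their age. Cells of both genotypes were left unstimulated (0 h) or received 1 μg/ml lipopolysaccharide (LPS), a cell wall component of Gram-negative bacteria, for 1, 4 or 24 h. Each of the 8 two-colour arrays held KO and WT RNA of 1 time point, with 2 biological replicates per time point and the dyes exchanged between them, which gave 16 channels. KO RNA carried Cy5 in replicate 1 and Cy3 in replicate 2, so that replicate number and dye orientation cannot be told apart.

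Zinc is kept at very low free concentrations inside cells. Metallothioneins are small cysteine-rich proteins that bind zinc and copper, transporters of the Slc30 (ZnT) family move zinc out of the cytosol, and those of the Slc39 (ZIP) family move it in. Free zinc activates the transcription factor MTF1, which binds metal response elements and drives the metallothionein genes and Slc30a1, and inflammatory signals and glucocorticoids also raise metallothionein expression. Macrophages are known to redistribute zinc when they meet bacterial products.

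Levels are log2 intensities after background correction and normalization, and a difference of 1 is a 2-fold difference. A gene was called when its adjusted p (limma, Benjamini-Hochberg over all genes and transcripts tested) was under 0.05. Between 43.8% and 51.3% of gene spots were well above background per channel, and all 8 genes were so in all 16 channels, with no saturated spot. Furin was lower in the KO channel on both arrays at 0 h (log2 KO/WT -0.59 and -0.85), 1 h (-0.56 and -0.55) and 24 h (-0.59 and -0.69), but not at 4 h, where the ratios were 0.00023 and 0.33. At 4 h, Furin therefore goes against the label, in the sense that it was not lower in the KO channel, and RNA of that time point is called "labelled KO" here. Whether the probe lies inside the deleted part of Furin is not given in the sources used here, which limits it as a check of the labels. Where values of all time points are given together, they are those of the channels labelled KO. Lyz2, whose locus carries the Cre, was lower in the KO channel on all 8 arrays, with ratios from -1.85 to -0.74, and at 4 h the ratios were -1.04 and -1.13. Of the macrophage markers, 5 of 5 measured (Adgre1, Csf1r, Itgam, Mertk and Cd14) were well above background in all 16 channels, and Cd68 was not measured here. All 5 B cell, 4 of 5 T and NK cell and all 5 mast cell markers were also above background in all 16 channels. Of 6 neutrophil markers measured, 2 (Camp and S100a8) were above background in all 16 channels. The other 4 (Retnlg, Ngp, Mpo and S100a9) were above background in none, 24 h included. The summed intensity of the 6 was 2436 to 3565 from 0 to 4 h and 22911 to 65092 at 24 h, a rise that rests on Camp and S100a8. The part of this rise in the 24 h results was not tested. In such mixtures, fewer cells of a type and less RNA per cell cannot be told apart. The arrays of 0 and 1 h lay in 1 row of the slide and those of 4 and 24 h in the other, so slide row and LPS time cannot be told apart in comparisons across rows.

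Start-site windows of 4 genes are shown because they hold matches to the metal response element, the sequence that MTF1 binds, while the genes themselves moved in different ways with LPS. The windows run from 250 bases before to 50 after the start site in RefSeq's table (GRCm38.p6), which held 8 windows for 7 of the 8 genes (all but Slc39a14). The core of the element was searched as TGCACNC and TGCGCNC on both strands, and matches are in capitals. The windows are those of Mt1 at chr8:94178839-94179138 (+), Mt2 at chr8:94172368-94172667 (+), Slc30a1 at chr1:191906531-191906830 (+) and Slc30a4 at chr2:122702614-122702913 (-), each read 5′ to 3′ on the gene's strand.
Mt1: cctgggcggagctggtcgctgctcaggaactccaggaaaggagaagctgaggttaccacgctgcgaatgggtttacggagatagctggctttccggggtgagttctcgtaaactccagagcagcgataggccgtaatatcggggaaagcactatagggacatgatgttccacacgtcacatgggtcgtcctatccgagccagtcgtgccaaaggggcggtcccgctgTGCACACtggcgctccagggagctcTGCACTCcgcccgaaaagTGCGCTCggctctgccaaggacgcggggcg
Mt2: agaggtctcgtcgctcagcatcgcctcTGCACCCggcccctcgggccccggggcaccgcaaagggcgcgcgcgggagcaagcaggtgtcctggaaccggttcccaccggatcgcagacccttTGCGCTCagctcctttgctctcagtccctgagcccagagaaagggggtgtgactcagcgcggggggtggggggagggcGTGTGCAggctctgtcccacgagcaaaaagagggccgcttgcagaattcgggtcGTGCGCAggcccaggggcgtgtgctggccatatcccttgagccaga
Slc30a1: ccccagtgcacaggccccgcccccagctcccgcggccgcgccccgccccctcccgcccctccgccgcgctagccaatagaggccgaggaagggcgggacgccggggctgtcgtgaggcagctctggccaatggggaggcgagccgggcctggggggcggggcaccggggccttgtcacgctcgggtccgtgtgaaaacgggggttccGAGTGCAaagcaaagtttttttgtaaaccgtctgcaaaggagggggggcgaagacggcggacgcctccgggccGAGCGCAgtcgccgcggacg
Slc30a4: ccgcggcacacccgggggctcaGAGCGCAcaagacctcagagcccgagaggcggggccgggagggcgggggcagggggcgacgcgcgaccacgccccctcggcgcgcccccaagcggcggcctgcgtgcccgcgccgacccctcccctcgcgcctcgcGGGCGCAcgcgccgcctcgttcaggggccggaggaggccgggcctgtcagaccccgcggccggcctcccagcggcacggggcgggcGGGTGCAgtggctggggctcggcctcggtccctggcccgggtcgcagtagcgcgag
Mt2 held 4 matches, Mt1 and Slc30a4 held 3 each, and Slc30a1 held 2. The second of the Slc39a8 windows (chr3:135825407-135825706, +) held 1 match, while its first window and those of Mtf1 and Slc39a1 held none. Among all 32851 windows of this length, 25.7% held at least 1 match, 7.11% at least 2 and 0.517% at least 4. The antioxidant response element core TGACNNNGC was found once each in the windows of Mt2, Slc30a1, Slc39a1 and the first window of Slc39a8, against 12.4% of all windows, and the STAT core TTCNNNGAA (8.3% of all windows) in none of the 8. The 2 metallothionein genes are neighbours on chromosome 8, with gene starts 6.26 kb apart. The start sites used for Mt1, Slc30a1 and Slc39a8 lie inside the annotated spans of these genes (chr8:94178883-94180327, chr1:191906697-191913248 and chr3:135816882-135888572). Both Slc39a8 windows lie wholly inside its span. Sequence further upstream, and sequence more than 50 bases after these start sites, was not searched. The match counts of these genes are therefore those of the windows alone.

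The log2 level of Mt2 spanned 5.64 over the 16 channels, that of Slc39a14 4.01 and that of Mt1 3.32, the widest ranges of the 8 genes. Mt2 rose within 1 h of LPS, was higher still at 4 h and had fallen by 24 h, and Mt1 rose at 4 h and fell below its unstimulated level at 24 h, in both genotypes. Slc39a14, which encodes the ZIP14 importer, rose 11.4-fold in WT cells and 9.08-fold in RNA labelled KO at 4 h, and Slc30a1, which encodes the zinc exporter ZnT1 of the plasma membrane, fell at all 3 times. At 4 h, 6 of the 8 genes had changed in WT cells, 5 upwards and 1 downwards, where 34.8% of all genes and transcripts tested were called, 15.5% upwards and 19.3% downwards. In RNA labelled KO the same 6 genes changed at 4 h in the same directions, beside 36% of all, 16.3% upwards and 19.7% downwards. All of the 8 genes but Slc39a8 had a mean log2 intensity of at least 8. Of all genes and transcripts at that level, 72.6% were called at 4 h in WT cells and 73.9% in RNA labelled KO. The median log2 change of the 8 genes at 4 h was 0.93 in WT cells and 1.02 in RNA labelled KO, and the medians over all tested were -0.00063 and 0.0016.

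**Figure D1:**
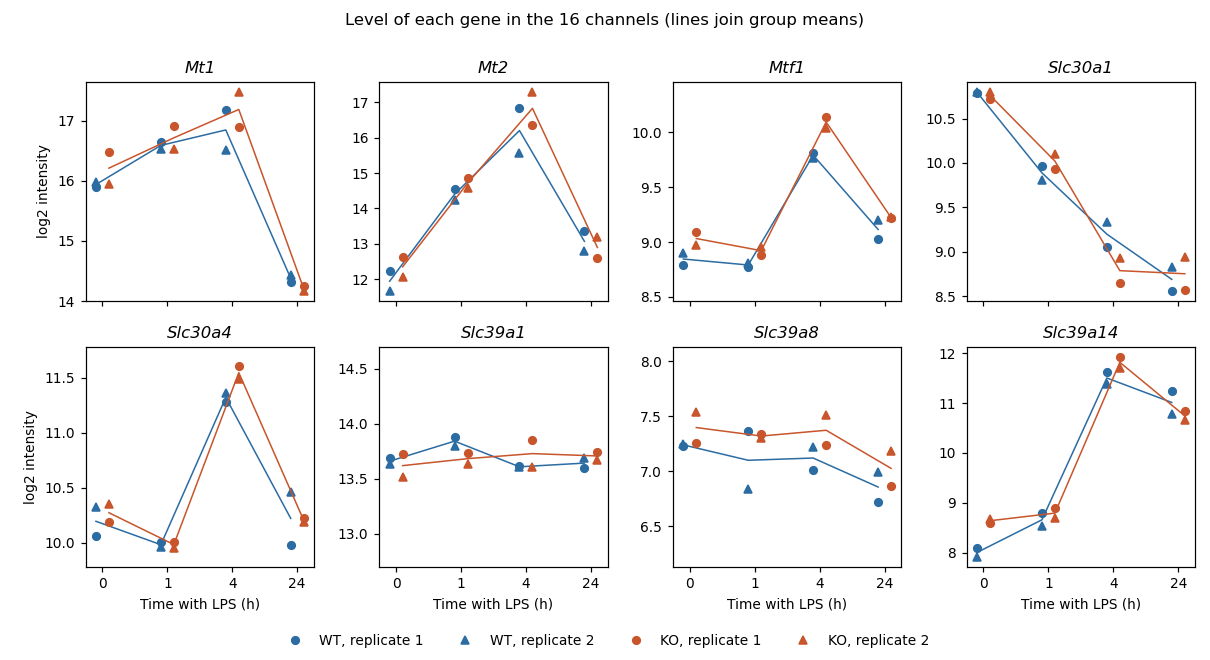
Normalized log2 intensity (y axis, scaled separately in each panel) of the 8 genes at 0, 1, 4 and 24 h of LPS (x axis, evenly spaced categories) in channels labelled WT (blue) and KO (orange), with circles for replicate 1, triangles for replicate 2 and lines through the 2-channel means. Mt2 spanned 11.66 to 17.30 over the 16 channels and Slc39a14 7.91 to 11.93, whereas Slc39a1 stayed between 13.51 and 13.88.

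Mt1 encodes a metallothionein found in most tissues. In WT cells its log2 level was 15.89 and 15.99 before LPS, 16.65 and 16.53 after 1 h, 17.18 and 16.51 after 4 h, and 14.32 and 14.44 after 24 h (replicates 1 and 2). In the channels labelled KO it was 16.47 and 15.95 before LPS, 16.91 and 16.52 after 1 h, 16.89 and 17.48 after 4 h, and 14.25 and 14.16 after 24 h. All 4 channels at 24 h lay below every other channel, while the 1 h and 4 h channels overlapped in both genotypes. At 4 h the rise from 0 h was 0.91 ± 0.24 (SE, n = 2 against 2) in WT cells, or 1.88-fold (adjusted p = 0.00835, limma), and 0.97 ± 0.24 in RNA labelled KO (adjusted p = 0.00502, limma). The WT call rested on replicate 1 of 4 h, without which the rise was 0.57 (adjusted p = 0.0557, limma), and the KO call was lost without replicate 2 of 0 h, at 0.71 (adjusted p = 0.0890, limma). At 24 h, Mt1 was 2.95-fold lower than at 0 h in WT cells (log2 change -1.56, adjusted p = 0.000165, limma) and 4.01-fold lower in KO cells (adjusted p = 1.84e-05, limma). The order of the group means was 4 h, 1 h, 0 h and 24 h in both genotypes, and the step from 0 to 1 h (0.65 in WT, adjusted p = 0.140, and 0.50 in KO, adjusted p = 0.294, limma) did not pass the threshold.

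Mt2 encodes the second of the widely expressed metallothioneins. In WT cells its log2 level was 12.23 and 11.66 before LPS, 14.56 and 14.24 after 1 h, 16.84 and 15.56 after 4 h, and 13.36 and 12.79 after 24 h. In the channels labelled KO it was 12.64 and 12.07 before LPS, 14.85 and 14.58 after 1 h, 16.36 and 17.30 after 4 h, and 12.61 and 13.18 after 24 h. The 0, 1 and 4 h channels did not overlap with each other in either genotype, and the lowest 4 h channel was above the highest 1 h channel. The rise at 1 h was 5.49-fold in WT cells (log2 change 2.46 ± 0.41 (SE), adjusted p = 0.00142, limma) and 5.14-fold in KO cells (2.36 ± 0.41, adjusted p = 0.00237, limma). At 4 h it reached 19.1-fold in WT cells (4.25, 95% interval 3.37 to 5.14, adjusted p = 1.38e-06, limma) and 22.2-fold in RNA labelled KO (4.47, 3.59 to 5.36, adjusted p = 8.52e-07, limma). From 4 to 24 h Mt2 fell by 3.13 in WT cells and by 3.93 in the channels labelled KO (adjusted p = 4.17e-05 and 5.02e-06, limma). At 24 h the WT level was still 1.13 above that at 0 h (adjusted p = 0.0537, limma), a difference that passed the threshold once terms for replicate number and dye were in the fit (adjusted p = 0.0101, limma), whereas in KO cells it was 0.55 (95% interval -0.34 to 1.43, adjusted p = 0.407, limma).

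The 4 h replicates of both metallothioneins were far apart. In WT cells replicate 1 exceeded replicate 2 by 0.67 for Mt1 and 1.29 for Mt2, and in RNA labelled KO replicate 2 exceeded replicate 1 by 0.59 and 0.94. On both 4 h arrays the Cy3 channel was the brighter one for both genes, with Cy3 minus Cy5 differences of 0.288 and 0.969 for Mt1 and of 0.486 and 1.74 for Mt2. At 0 and 1 h the Mt1 differences were between -0.583 and -0.004, whereas those of Mt2 were -0.404 and 0.407 at 0 h and -0.288 and 0.333 at 1 h, with the sign turning between the arrays. At 24 h they were 0.063 and -0.28 for Mt1 and 0.742 and 0.394 for Mt2, so neither gene had the same brighter dye on all 8 arrays. The part of the dye in the 4 h spread was not tested.

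Mast cell markers, like Mt1, had their 4 lowest values in the 24 h channels. The summed intensity of the 5 markers (Cpa3, Cma1, Mcpt4, Tpsb2 and Kit), all of them above background in all 16 channels, was 10650 and 7478 in WT and 9162 and 13586 in KO cells at 0 h. It was 9517 and 9493 in WT and 9976 and 12757 in KO cells at 1 h, 11777 and 9493 in WT and 10106 and 19950 in RNA labelled KO at 4 h, and 2954 and 1649 in WT and 3438 and 3509 in KO cells at 24 h. Replicate 2 of 4 h in RNA labelled KO had the highest mast cell sum and the highest Mt1 and Mt2 levels of the 16 channels, and the 4 channels at 24 h had the 4 lowest mast cell sums and the 4 lowest Mt1 levels. Within the 8 pairs of replicates of 1 genotype and time, the channel with the higher mast cell sum had the higher Mt1 level in 3 pairs and the higher Mt2 level in 6, and both 4 h pairs were among these for both genes. In unstimulated KO cells it was the other way, with mast cell sums of 9162 and 13586 beside Mt1 levels of 16.47 and 15.95. Across time points, the 4 lowest Mt2 channels were all at 0 h or 24 h, and the mast cell sums of unstimulated channels lay between 7478 and 13586. The part of mast cells in the metallothionein levels was not tested.

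**Figure D2:**
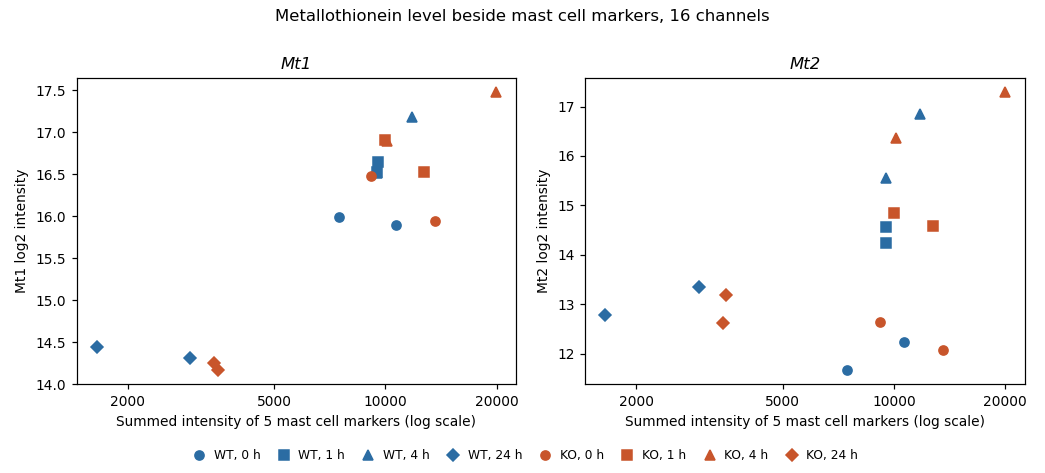
Log2 intensity of Mt1 (left) and Mt2 (right, y axes) against the summed intensity of 5 mast cell markers (x axis, log scale) in the 16 channels, with blue for those labelled WT, orange for those labelled KO and a symbol per time point. For Mt1 the 24 h channels sit at the lower left, with mast cell sums from 1649 to 3509, and the highest point in both panels is replicate 2 of 4 h in RNA labelled KO.

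Mtf1 (chr4:124802549-124849800) encodes the zinc-sensing transcription factor of the metallothionein genes. Its log2 level in WT cells was 8.79 and 8.90 before LPS, 8.78 and 8.80 after 1 h, 9.81 and 9.77 after 4 h, and 9.03 and 9.20 after 24 h. In the channels labelled KO it was 9.09 and 8.97 before LPS, 8.89 and 8.96 after 1 h, 10.14 and 10.04 after 4 h, and 9.22 and 9.23 after 24 h. The 4 h channels were the highest 4 of the 16 and did not overlap with any other time. The rise at 4 h was 0.95 ± 0.09 (SE, n = 2 against 2) in WT cells, or 1.93-fold (adjusted p = 1.77e-06, limma), and 1.06 ± 0.09 in RNA labelled KO, or 2.09-fold (adjusted p = 5.79e-07, limma). Other processing choices moved it between 0.50 and 1.04 in WT cells and between 0.62 and 1.19 in RNA labelled KO, and all of them called it. At 1 h there was no call in either genotype (-0.05 in WT, adjusted p = 0.870, and -0.11 in KO, adjusted p = 0.648, limma), the time at which Mt2 had already risen. The WT level at 24 h was 0.27 above that at 0 h (adjusted p = 0.0430, limma), a call that was lost in 7 of the 8 fits that left out 1 array, with an adjusted p from 0.0484 to 0.333 over the 8. Of the other 2 Mtf1 probes, 1 was above background in all 16 channels and gave rises of 0.71 in WT and 0.81 in RNA labelled KO at 4 h, and the other was above background in none.

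The exporters went opposite ways at 4 h. Slc30a1 encodes ZnT1, which moves zinc out of the cell and is itself a target of MTF1. In WT cells its log2 level was 10.79 and 10.80 before LPS, 9.97 and 9.81 after 1 h, 9.06 and 9.34 after 4 h, and 8.55 and 8.82 after 24 h. In the channels labelled KO it was 10.72 and 10.80 before LPS, 9.94 and 10.11 after 1 h, 8.65 and 8.93 after 4 h, and 8.57 and 8.94 after 24 h. The 0 h channels were the highest 4 of the 16, the 1 h channels the next 4, and the channels labelled KO at 4 and 24 h overlapped. The fall from 0 h was 1.88-fold in WT and 1.67-fold in KO cells at 1 h (log2 changes -0.91 and -0.74, adjusted p = 0.00104 and 0.00585, limma), 3.03-fold in WT cells and 3.93-fold in RNA labelled KO at 4 h (-1.60 and -1.97, adjusted p = 8.04e-07 and 1.04e-07, limma), and 4.31-fold and 4.02-fold at 24 h (-2.11 and -2.01, adjusted p = 9.01e-08 and 1.52e-07, limma). In KO cells the call at 1 h was lost without replicate 1 or replicate 2 of 0 h or replicate 1 of 1 h, with adjusted p up to 0.0752 (limma) and log2 changes of -0.78, -0.70 and -0.66. Between 4 and 24 h Slc30a1 fell by a further 0.51 in WT cells (adjusted p = 0.0160, limma), and in the channels labelled KO the difference was -0.03 (95% interval -0.35 to 0.28, adjusted p = 0.910, limma), which became a called difference of 0.48 without scaling between arrays (adjusted p = 0.0315, limma). Markers of large peritoneal macrophages (Timd4, Icam2, Gata6 and Alox15, 4 of 4 above background in all 16 channels) had summed intensities of 37106 to 47898 at 0 h, 33722 to 42374 at 1 h, 16228 to 22676 at 4 h and 7782 to 9888 at 24 h. Macrophage markers summed to 311090 to 347820, 329620 to 434770, 238850 to 337440 and 133150 to 213540 at these times. B cell markers summed to 64497 to 104840, 60943 to 101370, 27177 to 42643 and 38025 to 47760, and T and NK cell markers to 8872.5 to 14650, 11280 to 19576, 4165 to 6046 and 6626 to 7730. These sums did not all fall with Slc30a1, since at 1 h those of macrophage and of T and NK cell markers were above 0 h in every replicate of both genotypes and those of B cells were so in replicate 1 of KO cells (72270 and 92142). The summed markers of steroid-producing cells, 3 of 6 above background in all 16 channels, were 3347 to 7286 at 0 h and 2197 to 4402 at 24 h, lower at 24 h in every replicate. Mesothelial and fibroblast markers, 2 of 9 above background in all 16 channels, went the other way, from 1054 to 1293 at 0 h to between 2421 and 3276 at 24 h. So did the sum of the neutrophil markers given above, which rests on Camp and S100a8. The part of these cells in the Slc30a1 fall was not tested.

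Slc30a4 (chr2:122681233-122702663) encodes ZnT4, which loads zinc into vesicles. Its log2 level in WT cells was 10.06 and 10.33 before LPS, 10.00 and 9.96 after 1 h, 11.28 and 11.36 after 4 h, and 9.98 and 10.46 after 24 h. In the channels labelled KO it was 10.19 and 10.35 before LPS, 10.01 and 9.96 after 1 h, 11.61 and 11.49 after 4 h, and 10.22 and 10.18 after 24 h. The 4 h channels stood above all others, and the 0 h and 24 h channels overlapped in both genotypes. The rise at 4 h was 2.19-fold in WT cells (log2 change 1.13 ± 0.14 (SE), adjusted p = 1.69e-05, limma) and 2.42-fold in RNA labelled KO (1.28 ± 0.14, adjusted p = 5.27e-06, limma). By 24 h the difference from 0 h was 0.03 in WT (95% interval -0.28 to 0.33) and -0.07 in KO cells (-0.37 to 0.24).

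Among the importers, Slc39a1 and Slc39a8 did not pass the threshold in any LPS comparison, although without scaling between arrays Slc39a1 did at 24 h against 0 h in KO cells (0.47, adjusted p = 0.0134, limma) and at 24 h against 4 h in WT cells (0.37, adjusted p = 0.0427), whereas Slc39a14 passed it at 4 and 24 h in both genotypes. Slc39a1 (chr3:90248190-90253613) encodes ZIP1, a plasma membrane zinc importer with wide expression. Its 16 log2 levels ran from 13.51 in replicate 2 of unstimulated KO cells to 13.88 in replicate 1 of WT cells at 1 h, with all time points overlapping in KO cells. At 4 h the difference from 0 h was -0.05 in WT cells (95% interval -0.28 to 0.18) and 0.11 in RNA labelled KO (-0.12 to 0.34). Slc39a8 (chr3:135816882-135888572) encodes ZIP8, which carries zinc and manganese. Its 16 log2 levels ran from 6.72 in replicate 1 of WT cells at 24 h to 7.54 in replicate 2 of unstimulated KO cells. The largest LPS differences of Slc39a8 were at 24 h, with -0.38 in WT (95% interval -0.75 to -0.01, adjusted p = 0.120, limma) and -0.37 in KO cells (-0.74 to -0.0014, adjusted p = 0.138, limma). Other processing choices moved these to as low as -0.89 in WT and -0.77 in KO cells, without a call.

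Slc39a14 (chr14:70303467-70351452) encodes ZIP14, which imports zinc, manganese and non-transferrin iron and is known as an acute phase transporter of the liver. In WT cells its log2 level was 8.09 and 7.91 before LPS, 8.79 and 8.53 after 1 h, 11.62 and 11.39 after 4 h, and 11.24 and 10.79 after 24 h. In the channels labelled KO it was 8.60 and 8.68 before LPS, 8.89 and 8.70 after 1 h, 11.93 and 11.72 after 4 h, and 10.83 and 10.66 after 24 h. The 4 h and 24 h channels of both genotypes lay at 10.66 or above, and no 0 h or 1 h channel exceeded 8.89. The rise at 4 h was 11.4-fold in WT cells (log2 change 3.51, 95% interval 3.18 to 3.83, adjusted p = 6.54e-10, limma) and 9.08-fold in RNA labelled KO (3.18, 2.85 to 3.51, adjusted p = 1.64e-09, limma). At 24 h it was 8.08-fold in WT (3.01, adjusted p = 4.23e-09, limma) and 4.31-fold in KO cells (2.11, adjusted p = 1.42e-07, limma). WT cells had a called rise at 1 h (0.66, adjusted p = 0.0142, limma), which was lost without replicate 1 or 2 of 0 h (0.74 and 0.57) or replicate 1 of 1 h (0.53), with adjusted p up to 0.152. In KO cells the 1 h difference was 0.15 (95% interval -0.18 to 0.48, adjusted p = 0.716, limma). The difference between the genotypes in this 1 h response was -0.50 ± 0.15 (SE) and did not pass the threshold (adjusted p = 1.00, limma).

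**Figure D3:**
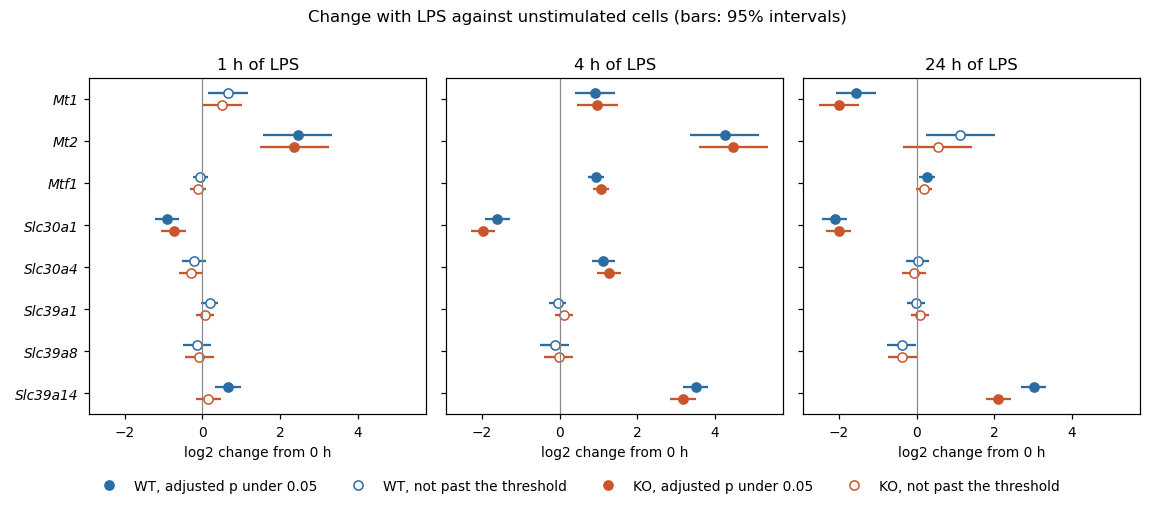
Log2 change from 0 h (x axis) of the 8 genes at 1, 4 and 24 h of LPS in channels labelled WT (blue) and KO (orange), with 95% intervals from the separate-channel fit and filled symbols where the adjusted p was under 0.05. Slc30a1 is left of 0 at all 3 times, Mt2 and Slc39a14 lie farthest right at 4 h (4.25 and 3.51 in WT cells), and Mt1 turns from right of 0 at 4 h to left of 0 at 24 h.

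The counts at the other times were smaller. At 1 h, 2 of the 8 genes had risen (Mt2 and Slc39a14) and 1 had fallen (Slc30a1) in WT cells, where 8.55% of all tested were called (3.37% rose and 5.18% fell), and in KO cells 1 rose (Mt2) and 1 fell (Slc30a1), beside 3.08% and 4.46% of all, or 7.54% together. At 24 h, 2 were above (Mtf1 and Slc39a14) and 2 below (Mt1 and Slc30a1) their unstimulated level in WT cells, beside 13.5% and 16.9% of all tested, or 30.4% together. In KO cells at 24 h, 1 was above (Slc39a14) and 2 were below (Mt1 and Slc30a1), beside 12.8% and 15.9%, or 28.7% together. Between 4 and 24 h, 6 of the 8 genes fell in WT cells and 5 in the channels labelled KO, and none rose, where 14.6% and 15.1% of all tested fell and 29.7% and 30.7% were called in either direction. The WT calls of Mtf1, Slc30a1 and Slc39a14 among these were lost without scaling between arrays, at log2 differences of -0.16, -0.0016 and -0.04. Those of Slc30a1 (without replicate 2 of 4 h, -0.37, or replicate 1 of 24 h, -0.37) and Slc39a14 (without replicate 1 of 4 h, -0.37, or replicate 2 of 24 h, -0.26) also rested on single arrays.

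FURIN is a protease that activates many pro-proteins, and the comparison of genotypes asked whether its loss in myeloid cells changes expression of these genes. None of the 8 genes passed the threshold in a KO/WT comparison. At 0 and 1 h none of the genes and transcripts tested did (0% at each), at 4 h 0.00812% did and at 24 h 0.0244%. At an unadjusted p under 0.05 the numbers among the 8 were 1, 0, 3 and 1 at 0, 1, 4 and 24 h by limma, and 1, 0, 1 and 0 by the methods' t-test, by which none passed after adjustment. Of all tested, 5.75%, 5.46%, 4.31% and 3.42% had an unadjusted limma p under 0.05 at these times. Over the mean of the 4 times, 0.563% of all tested were called and none of the 8, and for the changes of the ratio from 0 h to 1, 4 or 24 h the share of all was 0% each. The median KO/WT ratio of the 8 genes over the 4 times was 0.16 on the log2 scale, and that of all tested was 0.0002. At 4 h Furin went against the label, whereas Lyz2 was lower in the channel labelled KO there (-1.04 and -1.13), as at the other times. Because of Furin, the mean was also taken without the 4 h arrays and with their ratios turned, choices made after seeing the data. The median of the 8 genes was then 0.11 and 0.0048, beside -0.0011 and -0.0018 over all tested, and none of the 8 passed the threshold, with or without the replicate term described next. Without 4 h, 0.233% of all tested were called, or 4.61% with that term. With the 4 h ratios turned, 0% were called, or 0.961% with that term.

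At 0 h, Slc39a14 had the smallest p of the 8 genes in the comparison of genotypes (unadjusted p = 0.000232, limma). Its log2 KO/WT ratio was 0.51 and 0.77 on the 2 unstimulated arrays, 0.10 and 0.17 after 1 h, 0.30 and 0.33 after 4 h, and -0.41 and -0.13 after 24 h. Both arrays were above 0 at the first 3 times, of which the sign at 4 h rests on arrays with Furin against the label, and below 0 at 24 h. The mean at 0 h was 0.64 ± 0.11 (SE), or 1.56-fold (adjusted p = 0.163, limma), and it was called when the replicate number, which is also the dye orientation, was a term in the fit (adjusted p = 0.0101, limma), where 1.06% of all tested were called. The ratio fell by 0.91 from 0 to 24 h, with -0.92 in replicate 1 and -0.89 in replicate 2 (95% interval -1.25 to -0.57, adjusted p = 0.375, limma), and this too was called with that term (adjusted p = 0.0178, limma), beside 0.211% of all tested. The mean over the 4 times was 0.20 (adjusted p = 0.159, limma), and 0.0208 was the adjusted p with the term, beside 6.01% of all tested. Without the 4 h arrays that mean was 0.17 (adjusted p = 0.382, or 0.0963 under the replicate term, limma), so the call of the mean was lost.

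Mtf1 was higher in the channel labelled KO on all 8 arrays, of which the 4 h arrays had Furin against the label. Its log2 ratios were 0.29 and 0.08 before LPS, 0.11 and 0.15 after 1 h, 0.33 and 0.28 after 4 h, and 0.19 and 0.03 after 24 h. Its mean over the 4 times was 0.18 ± 0.05 (SE), or 1.13-fold (adjusted p = 0.165, limma), and passed with the replicate term (adjusted p = 0.0324, limma). Without 4 h it was above 0 on 6 of 6 arrays, and its mean of 0.14 was not called in either fit (adjusted p = 0.427 and, with the term, 0.156, limma). Slc39a8 was above 0 on 7 of 8 arrays, between -0.03 and 0.47, and its mean of 0.20 ± 0.06 missed the threshold (adjusted p = 0.252, limma) unless the replicate number was in the fit (adjusted p = 0.0368). Other processing choices moved that mean between 0.19 and 0.40. On the 6 arrays of the times other than 4 h, Slc39a8 was above 0 on 5, with a mean of 0.18 that neither fit called (adjusted p = 0.442, and 0.104 given the term, limma). With the 4 h ratios turned, the means over the 4 times were 0.03 for Mtf1, 0.07 for Slc39a8 and 0.05 for Slc39a14, with adjusted p of at least 0.610 in both fits (limma). Slc30a1 ratios at 4 h were -0.41 on both arrays, with a mean 0.75 times the WT level (adjusted p = 0.589, or 0.0868 with the replicate term, limma), while at 0, 1 and 24 h they lay between -0.07 and 0.30. The ratios at 4 h take the direction of arrays on which Furin went against the label.

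At 4 h the replicates gave metallothionein ratios of opposite sign. There the log2 KO/WT ratio of Mt1 was -0.29 on one array and 0.97 on the other, and that of Mt2 was -0.49 and 1.74. At 0 h Mt2 had 0.40 and 0.41, and at 1 h 0.29 and 0.33, so KO was the higher on all 4 arrays of those times. The Mt2 mean at 0 h was 0.41 with a 95% interval of -0.58 to 1.40 (adjusted p = 1.00, limma), and that at 24 h was -0.17 (-1.16 to 0.81). For Mt1 the mean over the 4 times was 0.14 (95% interval -0.15 to 0.44), and 0.08 without the 4 h arrays or -0.03 with their ratios turned. For Mt2 it was 0.29 (-0.20 to 0.79), and 0.18 or -0.02 in the same order. Leaving out 1 array moved the Mt1 mean between -0.02 and 0.30 and the Mt2 mean between 0.01 and 0.57, and with the 4 h ratios turned both means changed sign. The Slc30a4 mean was 0.07 (-0.07 to 0.22), with 0.02 without 4 h and -0.04 turned, and that of Slc39a1 was -0.0038 (-0.12 to 0.11), with -0.05 and -0.06. The Slc30a1 mean of -0.06 became 0.05 without 4 h and 0.14 turned.

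**Figure D4:**
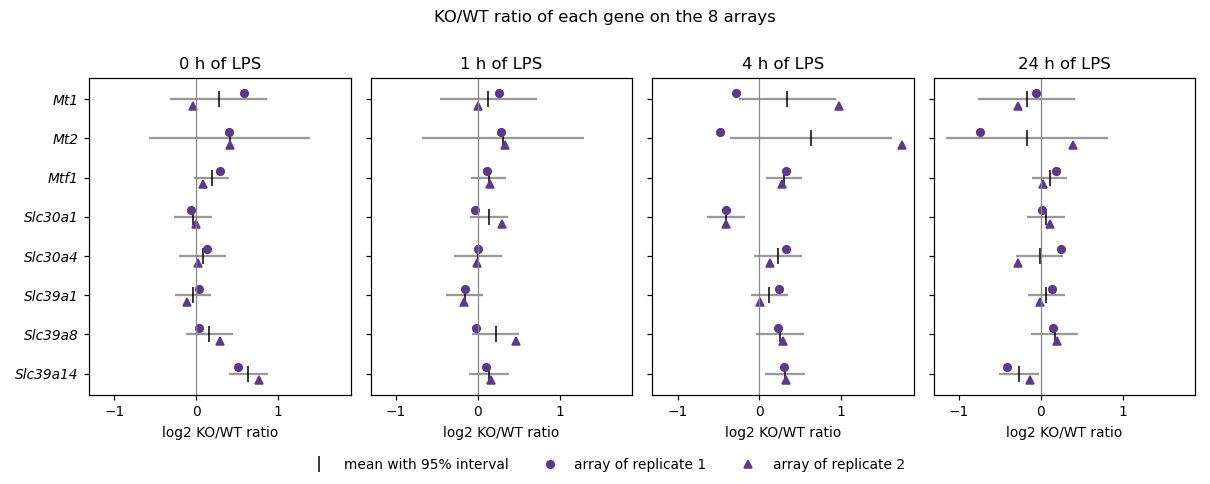
Log2 KO/WT ratio (x axis) of the 8 genes at 0, 1, 4 and 24 h of LPS, with a circle for the array of replicate 1, a triangle for that of replicate 2, and a tick with a grey bar for the mean and its 95% interval. Slc39a14 lies right of 0 on both arrays at 0 h (0.51 and 0.77) and left of 0 on both at 24 h (-0.41 and -0.13), and the arrays of Mt1 and Mt2 lie on opposite sides of 0 at 4 h.

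Of the 21 other metallothionein and zinc transporter genes, all 21 were tested, 12 were above background in all 16 channels and 5 (Slc30a3, Slc30a8, Slc30a10, Slc39a5 and Slc39a12) in none. At 4 h, 4 of the 21 rose and 4 fell in WT cells, where 15.5% and 19.3% of all tested did. In RNA labelled KO, 3 rose and 5 fell, beside 16.3% and 19.7% of all. One of these 5 was Slc39a12, named after its values were seen, which was not well above background in any channel, so that 4 falls were of measured genes. Slc30a6, which encodes a ZnT protein of the secretory pathway, rose 2.63-fold in WT cells and 2.55-fold in RNA labelled KO (adjusted p = 1.49e-06 and 2.14e-06, limma). Slc30a7, a further transporter gene of that compartment, rose 2.00-fold and 2.50-fold (adjusted p = 0.000136 and 9.88e-06), and the importer gene Slc39a6 2.17-fold and 1.95-fold (adjusted p = 7.30e-06 and 3.10e-05). On the log2 scale, the importer genes Slc39a11 (-1.30 in WT and -1.18 in RNA labelled KO), Slc39a13 (-0.80 and -0.91) and Slc39a3 (-0.45 and -0.42) fell in both. Of all 8 other exporter genes, 2 rose and none fell in either genotype, and of the 11 other importer genes 1 rose in both, while 4 fell in WT cells and 5, Slc39a12 included, in RNA labelled KO. The other metallothioneins, Mt3 and Mt4, were not called in both genotypes and are given because the list holds only these 2. Mt4, above background in 1 of the 2 unstimulated channels of each genotype, rose at 4 h by 0.39 in WT cells (adjusted p = 0.00693, limma), against 0.26 in RNA labelled KO (adjusted p = 0.0585), and Mt3 differed by 0.33 and 0.26 (adjusted p = 0.0860 and 0.196). At 24 h, 5 of the 21 were above and 1 below their unstimulated level in WT cells, and 2 and 2 in KO cells, where 30.4% and 28.7% of all tested were called in either direction. One of the 2 lower ones in KO cells was Slc30a2, named after its values were seen, which was above background in 1 of the 2 channels at 0 h and in none at 24 h. None passed in a KO/WT comparison, and with the replicate term 1 did over the mean of the 4 times, Slc39a11 at -0.24 (adjusted p = 0.00752, limma), beside 6.01% of all tested.

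**Figure D5:**
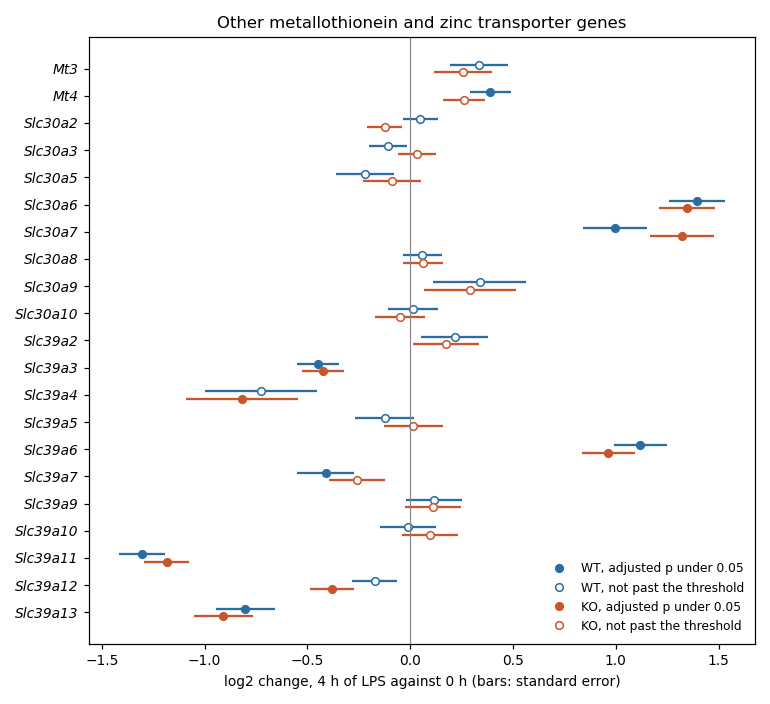
Log2 change at 4 h of LPS against 0 h (x axis) of 21 other metallothionein and zinc transporter genes in WT cells (blue) and RNA labelled KO (orange), with bars for the standard error and filled symbols where the adjusted p was under 0.05. Slc30a6, Slc30a7 and Slc39a6 lie near or above 1 in both genotypes and Slc39a11 below -1.

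Lists of copper handling and of glucocorticoid-induced genes were read beside the metallothioneins, since copper and glucocorticoids are known inducers of Mt1 and Mt2. Of 9 copper genes, 2 rose and 3 fell at 4 h in WT cells, and 3 rose and 3 fell in RNA labelled KO, beside 34.8% and 36% of all tested called in either direction. Steap4, a metalloreductase gene, was well above background at 4 h alone, where it was at least 2.47-fold higher than at 0 h in WT cells and at least 2.35-fold higher in RNA labelled KO (adjusted p = 0.000812 and 0.00125, limma). Such a bound sets the mean of the measured channels against that of the channels not well above background. On the log2 scale, the copper chaperone genes Ccs (-1.63 and -1.79) and Atox1 (-1.16 and -1.02) and the copper exporter gene Atp7a (-0.44 and -0.67) fell in both. Of 6 glucocorticoid-induced genes, 1 rose and 1 fell in WT cells at 1 h, and 1 rose and 2 fell in KO cells, beside 8.55% and 7.54% of all tested called. At 4 h none rose, 4 fell in WT cells and 3 in RNA labelled KO, where 19.3% and 19.7% of all tested fell. At 24 h none rose and 5 fell in both genotypes, beside falls of 16.9% and 15.9% of all. The gene that rose at 1 h was Sgk1 (1.12 in WT and 1.02 in KO cells, adjusted p = 0.00032 and 0.000832, limma), which was named after its values were seen. At 4 h, Tsc22d3, a standard glucocorticoid target, fell in both (-2.29 and -2.52). Zbtb16, not well above background in any 4 h channel, was at least 3.53-fold lower there than at 0 h in WT cells and at least 4.48-fold lower in RNA labelled KO (adjusted p = 6.55e-06 and 1.23e-06, limma). Of 6 LPS response genes, 5 rose at 4 h in both genotypes (Tnf, Il6, Il1b, Il10 and Nos2), with Il6, Il1b and Tnf the largest (9.55, 7.44 and 7.04 in WT cells, and 8.71, 6.37 and 6.35 in RNA labelled KO).

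The genes whose levels followed each of 4 members most closely were found by Pearson's r of log2 intensity over the 16 channels, among 9525 named genes whose mean log2 intensity reached 8. The 16 points share arrays in pairs and the same LPS course, so r is given as a description of likeness. For Mt1 these were Rab8b (r = 0.971), Cma2 (0.968), Med11 (0.964), Lonrf1 (0.963) and Rasgrp4 (0.962), of which Cma2 encodes a mast cell protease and Rasgrp4 a signalling protein of mast cells. For Mt2 they were Lmcd1 (0.979), Cnnm4 (0.978), Smarca5-ps (0.972), Nfil3 (0.968) and Rnpc3 (0.966). The r between Mt1 and Mt2 themselves was 0.656, with Mt1 lowest at 24 h and Mt2 lowest at 0 h. Slc30a1 was most like Herc4 (0.980), Cd48 (0.978), Adi1 (0.978), Ncoa3 (0.976) and Pgrmc2 (0.975), and Slc39a14 was most like Ifi35 (0.990), Rnf24 (0.989), Slfn3 (0.989), Cct3 (0.988) and Oxsr1 (0.987). Between Slc30a1 and Slc39a14, r was -0.904, and between Mtf1 and Slc30a4, which both peaked at 4 h, it was 0.959.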

How the data were processed

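Scanner output of 8 Agilent mouse arrays was used. Per the file headers and the submitters' processing notes, the authors extracted spot intensities with Agilent Feature Extraction 10.7.3. By the study's methods, the deposited log2 ratios were normalized by the authors with loess and quantile in limma, and they followed the present Cy5/Cy3 log2 ratios with r from 0.982 to 0.996 and slopes from 0.955 to 1.04. Their background correction is not given in the sources used here. The deposited median intensity and local background of each spot were corrected by normexp (offset 50), normalized by loess within and quantile between arrays (limma 3.58.1, statmod 1.5.0, R 4.3.3), averaged per probe, and genes under a mean log2 intensity of 6 were dropped, a limit taken from the study's methods. Probes were named through RefSeq's table (GRCm38.p6): 27509 of 55681 gene probes matched 20887 genes, and unnamed ones were grouped by transcript identifier. Each gene kept its brightest probe. KO/WT ratios of the 8 arrays were fitted with 1 coefficient per time (lmFit, eBayes), and LPS effects by the separate-channel model (within-spot correlation 0.0989). All arrays shared 1 slide and 1 scan. Intervals are 95%, and the number of arrays, 2 per time, limits the precision.

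Replicate numbers were taken to pair the samples. Replicate differences correlated over genes in all 6 pairs of times (r from 0.475 to 0.679 for KO/WT ratios, 0.339 to 0.565 in WT and 0.214 to 0.336 in KO channels). Each such difference is also a difference between dyes, so these correlations cannot tell pairing from a dye effect. Genes are not independent replicates. The shared growth protocol names 4 h of stimulation for all samples, and times were taken from each sample's own label. Alternatives covered normalization, background, filter, probe choice, single arrays left out, a replicate term, within-spot correlation, the deposited ratios and the methods' t-test. The fits were tested on simulated data. Named genes were the 8 members, their other probes, Furin, Lyz2, and of each list the 3 largest rises and falls at 4 h called in both genotypes. Mt3, Mt4, Sgk1, Slc30a2 and Slc39a12 fall outside this rule. The members, lists and tests were chosen with earlier results of these data known.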

Additional observations from a re-analysis of the deposited data

Results flagged for a closer look

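The Slc39a14 KO/WT ratio was above 0 on both unstimulated arrays (0.51 and 0.77 on the log2 scale), on both at 1 h (0.10 and 0.17) and on both at 4 h (0.30 and 0.33), and below 0 on both arrays at 24 h (-0.41 and -0.13). The change from 0 to 24 h was -0.91, with an adjusted p of 0.375 (limma), or 0.0178 with the replicate term. Without 1 array at a time it lay between -1.05 and -0.77, and none of these 8 fits called it (adjusted p from 0.492 to 1.00).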

How the results depend on the processing

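Among the 8 genes, 36 of 64 LPS values and 5 of 64 KO/WT values were called in the reported fit or with the replicate block, and none of these changed direction under any alternative run. Recomputed under each alternative apart from the 2 on the 4 h ratios, the 36 gave 612 values, of which 580 kept their side of the threshold, 25 lost and 7 gained the call, and the 5, which only the block called, gave 85, of which 80 were not called and the 5 with the block were. Of the other 59 KO/WT values, 22 changed sign under at least 1 of the same alternatives, 20 of them only when an array was left out, and none was called. Among these, leaving out 1 array gave -0.29 to 0.97 for Mt1 and -0.49 to 1.74 for Mt2 at 4 h, and -0.74 to 0.39 for Mt2 at 24 h. Of the other 28 LPS values, 12 changed sign and 5 were called under some alternative: Mt1 at 1 h in WT cells without either 4 h array, Mtf1 at 24 h in KO cells with the mean of its probes (0.33, adjusted p = 0.00778, limma), and Slc30a1 and Slc39a1 without scaling between arrays. The replicate block moved the number of the 8 genes called to 1 for KO/WT at 0 h, 3 for the mean over the time points and 1 for the change from 0 to 24 h, where there were none without it, and added Mt2 at 24 h in WT cells. The block changed no other call among the 8 genes. The means over the time points that left out or turned the 4 h ratios, chosen after seeing the data, called none of the 8, also with the block. Leaving them out changed the sign of the Slc30a1 mean (to 0.05), and turning them that of Slc30a1 (to 0.14), Mt1 (to -0.03), Mt2 (to -0.02) and Slc30a4 (to -0.04). Without single arrays, the number called in KO cells at 1 h was between 1 and 2. The share of all tested called for the KO/WT mean over the time points, 0.563% in the reported fit, was then between 0.00271% and 0.436%. It was 0.0595% with a normexp offset of 16 and 0% with the scanner's processed signals. At 1 h of LPS the share fell from 8.55% to as low as 4.9% in WT cells and from 7.54% to 3.92% in KO cells when an array was left out. The filter at a mean log2 intensity of 8 removed Slc39a8, so it gave no value for that gene, and over the 13087 genes that it left the median LPS change at 4 h was -0.12 in WT cells and -0.12 in RNA labelled KO. That filter raised the share of all tested genes called at 4 h in WT cells from 34.8% to 72.6%. The replicate block also raised the number of all tested genes called for KO/WT, from none to 393 at 0 h, and the number of the 21 other zinc genes called at 24 h in KO cells from 4 to 8 and at 1 h in KO cells from 1 to 2. The share of all tested called in KO cells rose with it from 28.7% to 33.5% at 24 h and from 7.54% to 11.9% at 1 h. All 8 probes were well above background in all 16 channels, and all intervals rest on 2 arrays per time.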
